A study of Rattus norvegicus with 6 samples.

Results

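The reads described here came from the nuclear-encoded transfer RNAs for aspartate with anticodon GTC (AspGTC) and for asparagine with anticodon GTT (AsnGTT). A read was counted when every one of its alignments to mature tRNA was to nuclear references of 1 of these 2 isoacceptors. Of 1593112 reads aligned to mature tRNA, 22009 were AspGTC reads (2794 different sequences) and 3837 were AsnGTT reads (727 sequences). Each isoacceptor had 15 of the 402 mature tRNA references, and no read belonged to both. The libraries were made from AR42J, a rat pancreatic acinar cell line: 3 from cells given 200 µM sodium taurocholate, a bile salt, for 30 min, and 3 from untreated cells. Whether the 3 libraries of a group are separate cultures is not stated, and a p-value here weighs a difference against the variation from library to library, of whatever origin. Nothing in the labels distinguishes the groups other than the bile salt.

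Transfer RNAs carry amino acids to the ribosome, and nucleases such as angiogenin can cut them in the anticodon loop into a 5′ and a 3′ fragment, known as tiRNAs. The first anticodon base, called the wobble base, is a guanine in AspGTC and AsnGTT, and the enzyme tRNA-guanine transglycosylase can exchange it for queuosine, as it does in the tRNAs for histidine and tyrosine. In AspGTC the queuosine of mammals carries a further sugar, and the methyltransferase Dnmt2 acts on a cytosine of the same loop. The library protocol removed amino acids and cyclic phosphates, phosphorylated 5′ hydroxyl ends and demethylated m1A and m3C, steps that make cut and modified tRNA readable.

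The mature sequences are shown because every cut site below is read from them. They were rebuilt from the deposited alignments, with the anticodon in capitals, and the AspGTC sequence was shared by 12 of the 15 copies and the AsnGTT sequence by 7 of 15.
AspGTC: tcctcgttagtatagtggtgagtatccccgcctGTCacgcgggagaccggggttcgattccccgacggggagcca
AsnGTT: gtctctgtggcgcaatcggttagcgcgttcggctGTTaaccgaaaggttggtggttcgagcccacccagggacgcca
Positions are numbered so that the wobble base is 34 in both and the anticodon loop spans 32 to 38. For AspGTC a position equals the base counted from the 5′ end, and for AsnGTT it is 1 less. The last bases, CCA, are added to every mature tRNA. The first T of the T loop, T54 in standard tRNA numbering, is base 53 of AspGTC and base 55 of AsnGTT.

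Libraries held 193750 to 348451 reads aligned to tRNA and 2791878 to 3987307 reads aligned to miRNA precursors. Reads ran from 16 to 51 nt, so a read of 51 nt does not show where its fragment ended. Such reads were 12.4%, 5.43% and 1.49% of tRNA reads in the taurocholate libraries, against 1.17%, 9.67% and 1.61% in the untreated libraries. Taurocholate replicate 1 and untreated replicate 1 stood apart in that a mismatched G was the last base of 21.9% and 7.70% of their mature tRNA reads, against 1.33% to 2.04% in the other 4 libraries. The precursor mir-148a, abundant in pancreas, had 951623 to 1540696 reads per library, while mir-216a, mir-216b and mir-217, known from acinar cells, had at most 4 reads in any library.

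AspGTC reads were mostly internal pieces and long 3′ fragments, and AsnGTT reads mostly internal pieces and short 3′ pieces. Fragments were classed by their ends, with a tolerance of 3 nt. Pieces that include the 5′ end are called tRF-5 up to 30 nt and tiRNA-5 from 31 nt on. Those that include the 3′ end are likewise called tRF-3 or tiRNA-3, and an i-tRF is internal, reaching neither end. Of the AspGTC reads 49.7% were i-tRF, 34.3% tiRNA-3, 8.55% tiRNA-5, 4.39% tRF-3 and 3.05% tRF-5. Of the AsnGTT reads 66.2% were i-tRF, 24.2% tRF-3 and 8.86% tiRNA-3, and 25 reads in all came from the 5′ end.

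**Figure D1:**
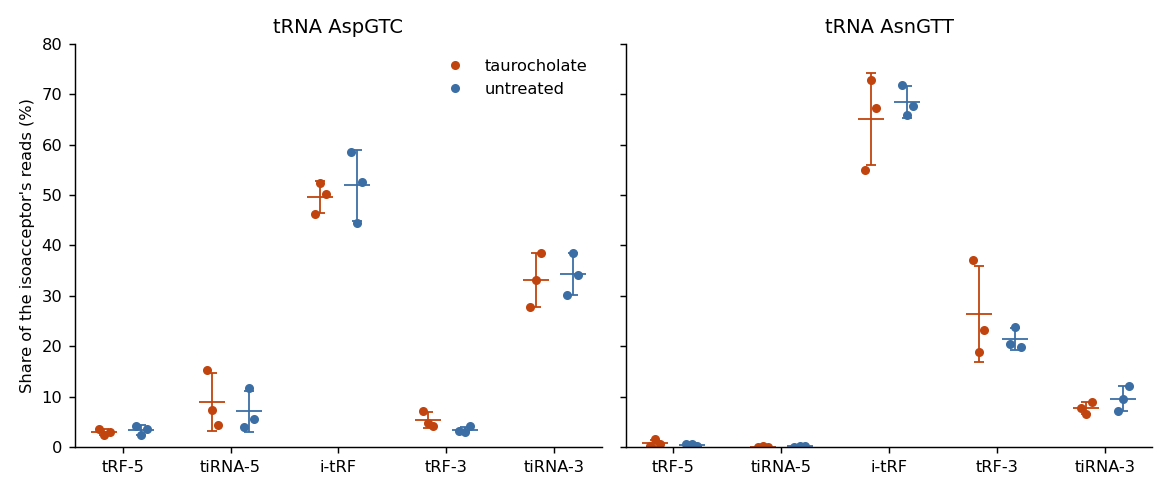
Share of each fragment class (x axis) among the reads of AspGTC (left panel) and AsnGTT (right panel), in percent of the isoacceptor's reads (y axis). Points are libraries, 3 with taurocholate and 3 untreated, and bars give the mean and SD; the groups overlap in every class but AspGTC tRF-3, where the taurocholate libraries lie between 4.08% and 7.12% and the untreated libraries between 3.01% and 4.06%.

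The long 3′ fragment, tiRNA-3, took a larger share of AspGTC reads than of any other tRNA compared. It made up 27.8%, 33.1% and 38.4% of AspGTC reads in the taurocholate libraries, against 30.2%, 38.5% and 34.2% in the untreated libraries. AspGTC gave 7554 of the 11767 tiRNA-3 reads of all mature tRNAs, or 56.5% to 69.5% per library. Among the 35 nuclear isoacceptors with at least 1000 reads, AspGTC was the first and AsnGTT the second by tiRNA-3 share. ArgTCG followed with 3.03%. The lowest AsnGTT library, at 6.51%, lay above every library of the isoacceptors other than AspGTC, of which SerGCT had the highest, at 4.38%.

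**Figure D2:**
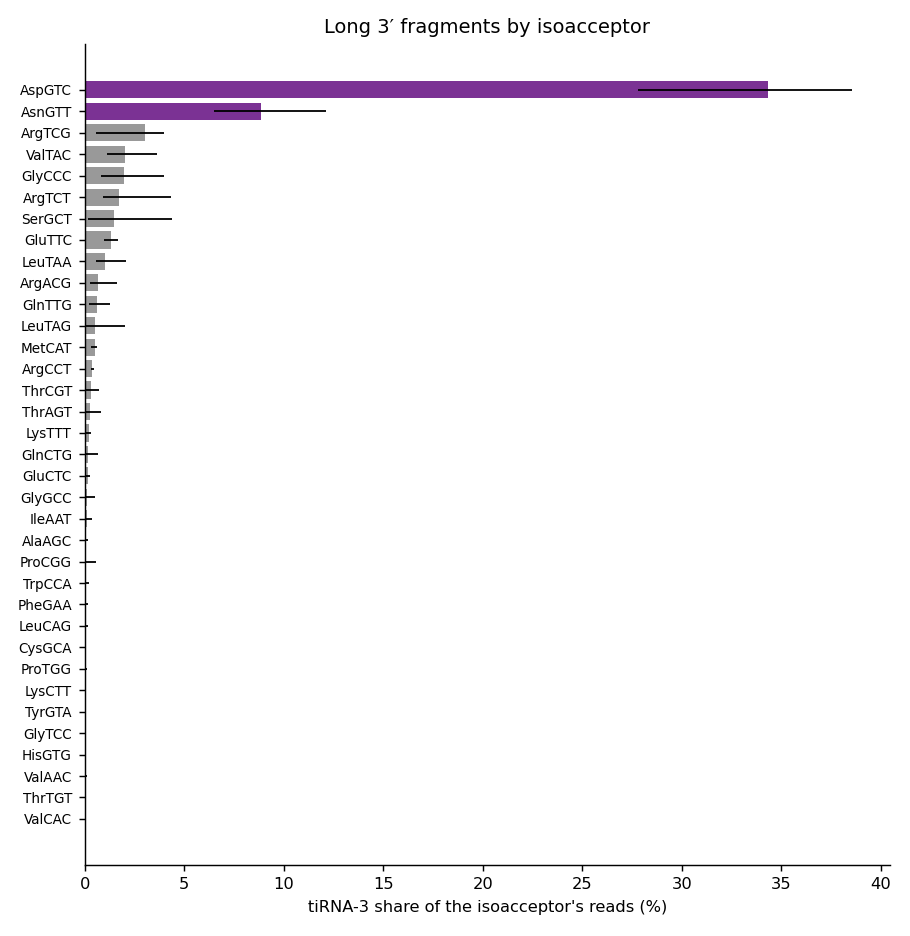
Share of tiRNA-3, the 3′ fragments of at least 31 nt, among the reads of each nuclear isoacceptor (bars, all 6 libraries together, percent on the x axis), with the lowest and highest library as a line. AspGTC (34.3%) and AsnGTT (8.86%), in purple, stand above the other 33 isoacceptors.

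HisGTG, a tRNA that can also carry queuosine, did not share this pattern. It had 61568 reads, with tiRNA-3 in 0% to 0.0544% of them. The AspGTC share exceeded the HisGTG share by 33.7 percentage points (SD of the library differences 4.31) and the AsnGTT share exceeded it by 8.64 points (SD 2.01), each in 6 of 6 libraries. Fragments with the 5′ end were 7.26% to 18.8% of AspGTC reads and 0.153% to 1.74% of AsnGTT reads, against 50.7% to 69.97% of HisGTG reads. Each of these differences, and the differences between AspGTC and AsnGTT in the shares of tiRNA-3, i-tRF, tRF-3 and all 5′ fragments together, had an exact two-sided sign permutation p of 0.0312, the smallest that 6 libraries allow, and 0.0345 after adjustment over 21 comparisons. TyrGTA, with 239628 reads, could not be compared, since its references contain their intron and a long 3′ fragment of the spliced tRNA that begins in the anticodon could not align to them. The same limit holds in the ranking above for any isoacceptor whose references keep an intron.

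The long 3′ fragments began just after the wobble base. Over all libraries the most frequent first base of AspGTC reads was position 35, directly after G34. The reads starting there numbered 470, 525 and 1049 in the taurocholate libraries, against 401, 1063 and 760 in the untreated libraries, or 11.5% to 23.2% of AspGTC reads. Position 32, at the start of the loop, came next with 515, 369 and 554 reads in the taurocholate libraries, against 383, 549 and 382 in the untreated libraries. Reads starting at 36 numbered 470, 269 and 552 in the taurocholate libraries, against 246, 646 and 360 in the untreated libraries. Between 43.1% and 56.3% of AspGTC reads began somewhere in the anticodon loop. A start at the wobble base itself was seen in 0.609% to 1.61% of reads.

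**Figure D3:**
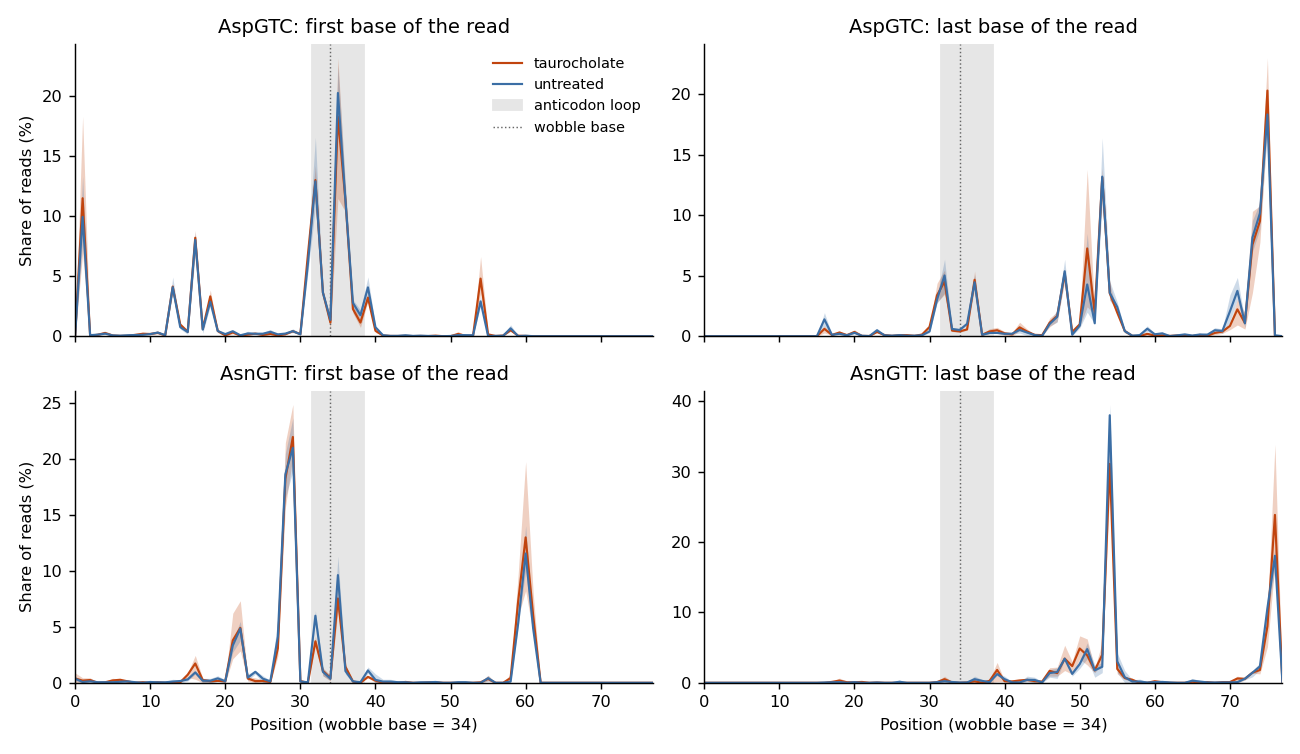
Share of reads (y axis, percent) by the position of the first base (left panels) and the last base (right panels) for AspGTC (top) and AsnGTT (bottom), numbered so that the wobble base is 34. Lines are group means over 3 libraries and shading spans the lowest to the highest library; both groups show AspGTC starts at 32 and 35 and AsnGTT starts at 28, 29 and 60.

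AsnGTT reads also began after G34, though less often. Reads starting at position 35 numbered 48, 29 and 64 in the taurocholate libraries, against 39, 71 and 72 in the untreated libraries, or 6.29% to 10.9% of AsnGTT reads. Position 35 began 73.8% to 83.3% of AsnGTT tiRNA-3 reads and 35.9% to 50.3% of those of AspGTC. Position 36 began 6.25% to 17.6% and 29.0% to 39.9% of them. The AspGTC share of reads starting at 35 was higher than that of AsnGTT by 10.99 percentage points (SD 3.82) and in 6 of 6 libraries. When each sequence was counted 1 time, the difference was 2.86 points and no longer of 1 sign in every library. By share of reads starting at 35, AspGTC ranked first and AsnGTT was number 4 of the 35 isoacceptors. ArgCCT (16.1%) and MetCAT (11.4%) lay between them, and the highest ArgCCT library, at 29.9%, exceeded every AspGTC library. Only 1 HisGTG library had any such read.

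The 3′ fragments that carry this cut are shown with their anticodon bases in capitals, since the break leaves 2 of the 3 anticodon bases, or the last 1, on the fragment.
AspGTC from 35, without the last CA: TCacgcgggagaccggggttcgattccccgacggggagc
AspGTC from 36, with the whole CCA: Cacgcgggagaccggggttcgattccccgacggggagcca
The sequence from 36 was the most abundant AspGTC read, with 150, 123 and 238 reads in the taurocholate libraries, against 86, 282 and 149 in the untreated libraries. The one from 35 had 49, 85 and 151 reads with taurocholate, against 47, 195 and 78 untreated. Both overlapped between groups.

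The matching 5′ fragments were rare. AspGTC reads that began at the 5′ end and stopped at position 34 numbered 8, 9 and 12 in the taurocholate libraries, against 11, 17 and 10 in the untreated libraries. Over all libraries there were 63.7 reads starting at 35 for each 5′ fragment ending at 34 (36.5 to 87.4 per library), and 29.9 starting at 36 for each ending at 35. The 2 sides were not counted alike. Starts were taken over all classes, with 3368 3′ fragments and 900 i-tRF at 35, while internal reads that ended at 34 or 35 were left out. No AsnGTT 5′ fragment ended at 34 or 35, against 323 and 47 reads that started at 35 and 36. Of the AspGTC 5′ fragments 45.9% ended at base 51, nearly all of them reads at the length limit. Base 16, in the D arm, followed with 208 reads and position 32 with 133. Fragments ending in the anticodon loop were 8.67%, 16.8% and 27.4% of AspGTC 5′ fragments in the taurocholate libraries, against 33.2%, 19.1% and 33.9% in the untreated libraries. The groups overlapped, with a difference of -11.1 percentage points (exact permutation p 0.2, two-sided). Reads of 51 nt, whose true end is not seen, stayed in these totals. They were 67.8%, 49.6% and 17.3% of AspGTC 5′ fragments with taurocholate, against 13.4%, 58.1% and 17.3% untreated. The shares therefore depend on how many such reads a library held, and the overlap is given for these totals only.
AspGTC 5′ read of 51 nt: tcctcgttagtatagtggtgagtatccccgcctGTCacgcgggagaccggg
This read, which spans an uncut anticodon loop, had 418, 94 and 43 copies in the taurocholate libraries, against 19, 324 and 34 in the untreated libraries. Its counts were high in taurocholate replicate 1 and untreated replicate 2, the libraries with most reads of 51 nt.

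Both isoacceptors also gave a family of internal pieces that began on the 5′ side of the anticodon loop or in its stem and stopped at T54. They are shown because they cross the intact anticodon.
AspGTC from 31: cctGTCacgcgggagaccggggt
AspGTC from 32: ctGTCacgcgggagaccggggt
AsnGTT from 28: tcggctGTTaaccgaaaggttggtggt
AsnGTT from 29: cggctGTTaaccgaaaggttggtggt
Reads ending at T54 were 10.9% to 16.4% of AspGTC reads and 27.1% to 37.8% of AsnGTT reads per library. The AsnGTT share was higher by 20.1 points (AspGTC minus AsnGTT -20.1, SD 5.48) in 6 of 6 libraries. By share of reads ending at T54, AsnGTT was number 3 and AspGTC number 8 of the 35 isoacceptors. ArgCCT (57.4%) and MetCAT (46.1%) had the highest shares. The AspGTC read from 32 had 104, 121 and 161 copies with taurocholate, against 120, 173 and 106 untreated. The AsnGTT read from 28, the most abundant AsnGTT sequence, had 39, 44 and 98 copies with taurocholate, against 56, 81 and 59 untreated. HisGTG reads ended there too, in 10.9% to 25.0%, and the difference of AspGTC from HisGTG was -4.98 points (SD 6.10), with an exact sign permutation p of 0.156. Internal reads from positions 27 to 33 to the T loop were 22.3% to 30.7% of i-tRF reads for AspGTC and 37.8% to 56.7% for AsnGTT, against at most 0.031% for HisGTG, a difference that was not tested. A second AspGTC family ran from the D arm into the anticodon loop and held 21.1% to 25.5% of its i-tRF reads.

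The short 3′ pieces of AsnGTT began at the end of the T loop, and the abundant ones differ by 1 base at the start.
AsnGTT from 59: gcccacccagggacgcca
AsnGTT from 60: cccacccagggacgcca
AsnGTT from 61: ccacccagggacgcca
The read from 60 had 45, 21 and 52 copies with taurocholate, against 18, 71 and 34 untreated, and the groups overlapped. The tRF-3 of AspGTC, 967 reads in all, began mostly at base 54, where 776 reads started.

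Many of the 3′ fragments aligned to only part of the CCA. Ends are given by the last aligned position, and a read whose last base was mismatched counts at that position. Such a mismatched last T was found in 10.4% to 22.1% of all AspGTC reads. Of AspGTC tiRNA-3 reads 61.1%, 42.6% and 45.2% reached the end of CCA with taurocholate, against 48.2%, 45.7% and 47.1% untreated. A further 24.5% to 30.1% ended at the position of CC and 11.7% to 25.2% at that of the first C. The highest share with CCA came from taurocholate replicate 1, the library with most mismatched last bases, whose part in this was not tested. AsnGTT tiRNA-3 reached the end of CCA in 10.7% to 26.2% of reads. Over all AsnGTT 3′ fragments, tRF-3 and tiRNA-3 together, 72.8%, 65.0% and 63.3% ended with CCA in the taurocholate libraries, against 54.7%, 55.3% and 56.9% in the untreated libraries, and the groups did not overlap. Those ending with CC were 21.4%, 19.7% and 27.3% with taurocholate, against 34.5%, 34.5% and 29.4% untreated, also without overlap. The differences were 11.4 and -9.98 percentage points, each with an exact two-sided permutation p of 0.1, the smallest possible, and of 0.8 after adjustment over 16 such shares, of which these 2 did not overlap. With error-free alignments they were 2.38 points (p 0.5) and -0.64 points (p 1, both exact). The groups were also apart for HisGTG 3′ fragments, which had 38 to 96 reads per library. Of these 69.8%, 55.3% and 52.9% ended with CCA with taurocholate, against 43.5%, 45.3% and 36.5% untreated. HisGTG fragments ending with CC were 29.2%, 44.7% and 45.6% with taurocholate, against 56.5%, 54.7% and 63.5% untreated. The HisGTG differences were not tested.

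Mismatches to the reference inside a read can mark modified bases. Only reads with a single mismatch were counted as mismatched, over all reads across the base. A read mismatched at its last base thus stayed in the total but could not count at an inner base. Reads with a mismatch anywhere were 37.8% to 48.2% of AspGTC and 31.2% to 49.0% of AsnGTT reads per library, so the shares below are lower limits. At G34 they were as rare as at most bases. AspGTC had 17 mismatches in 9354 reads across G34 (0.182%, 95% Wilson interval 0.114% to 0.291%) and AsnGTT 3 in 2283 (0.131%, 0.0447% to 0.386%), where the medians over all bases with at least 400 reads were 0.188% and 0.269%. HisGTG had 0.128%, and CysGCA, whose wobble guanine is not exchanged for queuosine, 0.224% of 21920 reads. GlyGCC, likewise without queuosine, had 0.0651% of 61424 reads, PheGAA 0 of 229, which allows up to 1.31%, and SerGCT 0 of 226, which allows up to 1.33%. Between the groups the exact permutation p at G34 was 0.3 for AspGTC and 1 for AsnGTT. Intervals cover counting error only, since reads without molecular identifiers are not independent molecules. Whether these wobble bases carried queuosine was not measured.

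Other bases stood out. In AsnGTT, G26, a position often dimethylated in eukaryotic tRNAs, was misread in 85 of 480 reads (17.7%, interval 14.6% to 21.4%), 68 of them as T. The share was 7.55%, 19.8% and 25.3% in the taurocholate libraries, against 15.3%, 14.3% and 19.5% in the untreated libraries, with overlapping groups. The adenosine A58, the site of m1A in many tRNAs, was misread in 412 of 9747 AspGTC reads (4.23%), 391 of them as T, and in 15 of 426 AsnGTT reads (3.52%). For AspGTC it was misread in 3.06%, 4.99% and 4.38% of reads with taurocholate, against 4.43%, 4.83% and 3.60% untreated (exact permutation p 0.9, two-sided, where 3 against 3 libraries cannot go below 0.1). Taurocholate replicate 1, the library with most mismatched last bases, had the lowest share at G26 of AsnGTT and at A58 of AspGTC. The part of the counting rule in this was not tested. The protocol included a demethylation step that acts on m1A, and whether these mismatches mark m1A was not tested. The second highest share of each isoacceptor lay at another base. Base 24 of AsnGTT was mismatched in 26 of 437 reads (5.95%) and base 6 of AspGTC in 67 of 2566 (2.61%).

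**Figure D4:**
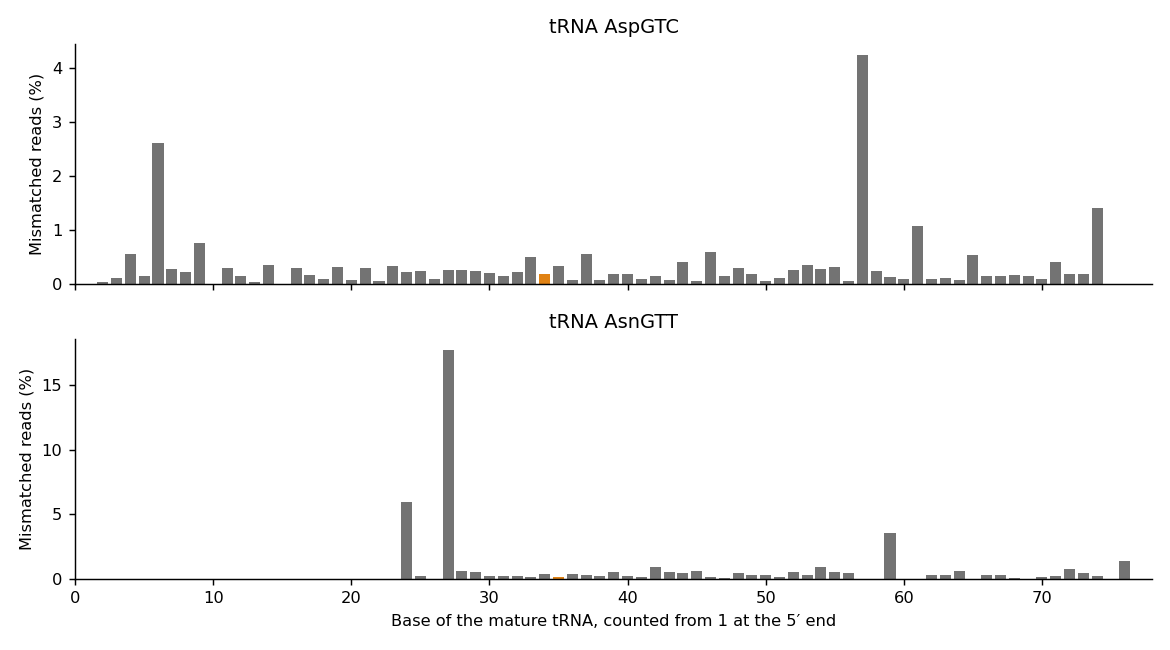
Share of reads with a mismatch (y axis, percent, all 6 libraries together) at each base of AspGTC (top) and AsnGTT (bottom), counted from 1 at the 5′ end (x axis), for bases crossed by at least 400 reads, with the wobble base in orange. The highest bars are base 57 of AspGTC (4.23%) and base 27 of AsnGTT (17.7%), which are A58 and G26 in standard numbering. Only reads with a single mismatch count as mismatched.

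Copies of the genes could be told apart at a few bases. An A at base 56, found in 3 of the 15 AspGTC references, was read in 585 of 5654 error-free reads across it (10.3%, 8.74% to 14.6% per library). A T at base 20, found in 1 reference, was read in 15.1% of 3627 reads. An A at base 41, found in 2 references, was read in 0.149% of 10065 reads.

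Neither isoacceptor differed between the groups beyond the spread between libraries. AspGTC was at 12128, 10192 and 14782 CPM, scaled to the tRNA reads of the library, with taurocholate, against 11943, 14596 and 14705 CPM untreated, and the groups overlapped. Its log2 fold change was -0.05 (SE 0.17, 2 SE from -0.38 to 0.29, edgeR quasi-likelihood adjusted p 0.941). AsnGTT was at 1936, 1808 and 2490 CPM with taurocholate, against 2606, 2276 and 2873 CPM untreated, a log2 fold change of -0.20 (SE 0.16, 2 SE from -0.53 to 0.13, edgeR adjusted p 0.696). Neither had an unadjusted p under 0.05, against 4.92% of all 122 isoacceptor sets, and both overlapped between groups, where 15.6% of the sets did not. CPM values carry no TMM factor, while the fold changes do; without it the median over all isoacceptor sets was -0.18, against -0.06 with it. In bulk samples fewer cut tRNAs per cell and fewer contributing cells cannot be told apart.

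No fragment class passed the test either. Of the 8 classes of these tRNAs that entered the fit 3 were higher and 5 lower with taurocholate (2 higher with library totals), with a median log2 fold change of -0.08 against 0.01 over all 230 classes tested. The share called was 0% over the isoacceptor sets, the classes, the cut positions and the read sequences of the whole table, at an edgeR adjusted p under 0.05. None of the 8 classes had an unadjusted p under 0.05, against 9.57% of all, and none was apart between groups in CPM, against 17.4% of all. The largest change was AspGTC tRF-3, with 863, 490 and 604 CPM in the taurocholate libraries, against 387, 439 and 596 CPM in the untreated libraries. Its log2 fold change was 0.64 (SE 0.29, edgeR adjusted p 0.461), and without the replicates numbered 1 it was 0.16. As a share of AspGTC reads tRF-3 was 5.34% ± 1.58 with taurocholate and 3.44% ± 0.550 untreated (SD, n = 3 each). The exact permutation test of this share gave 0.1, and 0.8 after adjustment over 10 shares. AsnGTT tiRNA-3 was at -0.46 (SE 0.28) and AspGTC tiRNA-3 at -0.09 (SE 0.25). AspGTC tiRNA-5 was at 0.27 (SE 0.62), and at -0.33 without reads of 51 nt and -0.85 without the replicates numbered 1.

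**Figure D5:**
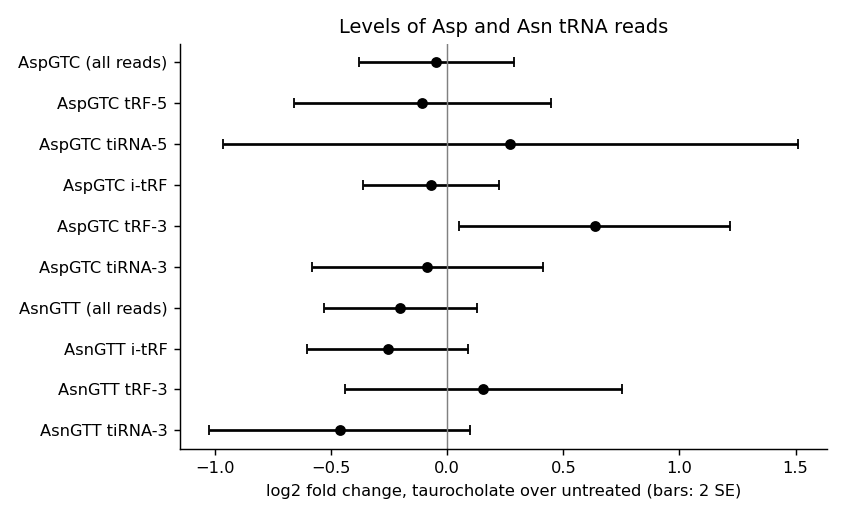
Log2 fold change of taurocholate over untreated libraries (x axis) from edgeR for all reads of AspGTC and AsnGTT and for each fragment class that entered the fit (rows), with bars of 2 SE. No estimate passed the adjusted test; they range from -0.46 for AsnGTT tiRNA-3 to 0.64 for AspGTC tRF-3.

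At single cut positions 4 of 42 had an unadjusted edgeR p under 0.05, or 9.52%, against 11.2% over all 843 positions, and 7 of 42 (16.7%) did not overlap between groups, against 18.1% over all; 1 of the 7 was higher with taurocholate. AspGTC 5′ fragments ending at 16 had 29, 7 and 38 reads with taurocholate, against 45, 41 and 48 untreated (log2 fold change -1.03, SE 0.46, edgeR adjusted p 0.442). AspGTC 5′ fragments ending at 35 had 7, 6 and 12 reads with taurocholate, against 11, 24 and 25 untreated (log2 fold change -1.31, SE 0.36, edgeR adjusted p 0.301). Those ending at 30, in the stem before the loop, had 28, 19 and 28 reads with taurocholate, against 9, 17 and 10 untreated (0.9998, SE 0.30, edgeR adjusted p 0.321). In CPM the groups did not overlap at either position. HisGTG 5′ fragments had group means in the same directions at both positions. Those ending at 30 had 2137, 4190 and 3544 reads with taurocholate, against 2141, 2902 and 1911 untreated. Those ending at 35 had 11, 10 and 23 reads, against 16, 36 and 30. In reads the HisGTG groups overlapped at both, and no test of them is given here. AspGTC reads starting at 54 had 272, 109 and 161 reads with taurocholate, against 65, 129 and 113 untreated (0.77, SE 0.31, edgeR adjusted p 0.416), and AsnGTT reads starting at 32 had 23, 15 and 31 with taurocholate, against 26, 46 and 41 untreated (-0.79, SE 0.27, edgeR adjusted p 0.332). The mean last base of AspGTC 5′ fragments of 26 to 40 nt was 32.68, 32.64 and 32.34 with taurocholate, against 33.04, 33.24 and 33.21 untreated, a difference of -0.61 nt with an exact permutation p of 0.1, the smallest possible. Starts after the wobble base did not pass the test, with a log2 fold change of -0.16 (SE 0.28) for AspGTC starts at 35 and -0.45 (SE 0.27) for AsnGTT starts at 35.

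Among single sequences 5 of 71 had an unadjusted edgeR p under 0.05 (7.04%, against 14.1% over all 2233 tested) and none an adjusted p under 0.05 (8 of 71, or 11.3%, did not overlap between groups in CPM, against 17.4% over all). The sequences of smallest p in each direction follow.
AspGTC, higher: ctGTCacgcgggagaccgggg
AspGTC, higher, 1 base shorter: ctGTCacgcgggagaccggg
AspGTC, lower: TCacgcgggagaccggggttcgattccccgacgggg
AspGTC, lower, with a mismatched last base: ctGTCacgcgggagaccggggttt
AsnGTT, lower: ctGTTaaccgaaaggttggtggt
AsnGTT, lower, with a mismatched last base: cggctGTTaaccgaaaggttggtggc
The first had 38, 9 and 29 reads with taurocholate, against 9, 11 and 9 untreated, a log2 fold change of 1.33 (SE 0.53, edgeR adjusted p 0.341). The 36-nt AspGTC read from 35, which stops short of the 3′ end, had 9, 8 and 19 reads with taurocholate, against 14, 28 and 44 untreated (-1.34, SE 0.46, edgeR adjusted p 0.314). The AsnGTT read from 32 had 8, 8 and 22 reads with taurocholate, against 12, 27 and 29 untreated (-0.92, SE 0.41, edgeR adjusted p 0.362). Of the other sequences the shorter AspGTC read was at 1.03, the one with the mismatched last base at -0.82 and its AsnGTT equivalent at -1.03. The 5 most abundant sequences of each isoacceptor had no unadjusted p under 0.05, and the AspGTC reads from 36 and 35 were at 0.00061 (SE 0.29) and -0.14 (SE 0.42). The AsnGTT sequences of smallest p on the higher side were the 3′ pieces from 59, at 0.62 (SE 0.38), and from 61, at 0.11 (SE 0.35).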

How the data were processed

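Small RNA libraries of AR42J cells were read as single ends. Novoalign 2.07.11 aligned them after quality control with FastQC and trimming with cutadapt, per the submitters' processing notes. A genome build is not given in the sources used here. Deposited alignment tables list each read sequence with its count, which was used as deposited, and its first and last base on the tRNA. The members and lists were chosen with earlier results of these data known. Mature references were rebuilt from the aligned reads and the wobble base found in them. Counts went into edgeR 4.0.16 under R 4.3.3 (quasi-likelihood test, TMM scaling, filterByExpr, Benjamini-Hochberg, adjusted p under 0.05) on the whole table, and shares by exact permutation over libraries; the edgeR step was tested on simulated data. Named were the fitted classes, the 5 most abundant sequences of each isoacceptor, the positions with most reads and the sequences with the smallest p among those averaging 10 CPM or more, with the cut positions under an unadjusted p of 0.05 added after their values were seen. TyrGTA, planned as a further comparison, was left out because its references keep their intron, and the shares of last bases were added after their values were seen. Counts of replicates differed by more than sampling noise. Alternatives included DESeq2 1.42.0, library totals, no filter, no reads of 51 nt, error-free alignments and leaving out libraries.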

Additional observations from a re-analysis of the deposited data

How the results depend on the processing

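Of 951 recomputed values for 80 results 878 kept their direction and their side of the threshold, and 62 changed direction. Shares compared between the groups could not change side. Their exact permutation p cannot go below 0.1, or 0.25 with the replicate number as a block. Without a filter on low counts edgeR called 1 isoacceptor set, 3 fragment classes, 36 cut positions and 125 read sequences of the whole table, against 0 in each, and DESeq2 called 44 sequences; the 125 included 2 AspGTC sequences with a mismatched last G, of whose 170 reads 142 came from taurocholate replicate 1, and the 44 included no AspGTC or AsnGTT sequence. No log2 fold change of the 2 isoacceptors or their classes passed the test under any alternative run. Its direction changed for AspGTC (0.023 with DESeq2, 0.036 with error-free alignments, -0.15 to 0.078 leaving out 1 library), AsnGTT tRF-3 (-0.0027 with library totals, -0.22 without the replicates numbered 1, an alternative chosen after seeing the data, and -0.17 to 0.41 leaving out 1 library) and AspGTC tiRNA-5 (-0.33 without reads of 51 nt, -0.85 without the replicates numbered 1, -0.46 to 0.97 leaving out 1 library). With library totals the direction also changed for AspGTC starts at 36 (-0.14), the AspGTC reads from 36 (-0.16) and from 31 (-0.065), AsnGTT starts at 60 (-0.11) and the AsnGTT 3′ piece from 61 (-0.10). Without the replicates numbered 1 it changed for AspGTC starts at 36 (-0.23), the read from 36 (-0.23), 5′ fragments ending at 51 (-1.04), the 51-nt read (-1.09), the AspGTC read from 32 (0.067), the AsnGTT read from 28 (0.0040), AsnGTT starts at 60 (-0.47) and the 3′ piece from 61 (-0.27). The AspGTC read from 36 was at -0.0016 with DESeq2 and -0.012 without a filter, and AsnGTT starts at 60 were at -0.016 with the replicate block. Leaving out 1 library gave -0.12 to 0.23 for AspGTC starts at 36, -0.17 to 0.26 for the read from 36, -0.42 to 0.30 for the read from 35, -0.20 to 0.048 for the read from 32, -0.54 to 2.43 for ends at 51 and -0.64 to 2.68 for the 51-nt read; for AsnGTT it gave -0.38 to 0.38 for starts at 60, -0.25 to 0.34 for the piece from 60 and -0.11 to 0.38 for that from 61. Leaving out 1 library gave -0.094 to 0.022 for AspGTC i-tRF, -0.29 to 0.13 for AspGTC tRF-5, -0.25 to 0.12 for AspGTC tiRNA-3 and -0.43 to 0.046 for AspGTC starts at 35.

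As shares of reads, AspGTC tRF-5 was 1.01 points higher when each sequence was counted 1 time (-0.87 to 0.067 leaving out 1 library) and AspGTC tiRNA-5 was at -0.74 points without reads of 51 nt (-1.27 to 4.24). The ranges were -5.93 to 1.03 points for AspGTC i-tRF, -3.85 to 1.45 for AspGTC tiRNA-3, -0.12 to 0.56 for AsnGTT tRF-5, -7.31 to 1.65 for AsnGTT i-tRF and -0.32 to 8.79 for AsnGTT tRF-3. Between isoacceptors, AspGTC minus AsnGTT for starts at 35 was 2.86 points with each sequence counted 1 time and AsnGTT minus HisGTG for starts at 36 was 0.82 points with error-free alignments, both no longer of 1 sign in every library. AspGTC minus HisGTG became of 1 sign in every library for reads ending at T54 with each sequence counted 1 time (-4.88). For i-tRF it did so with a 1 nt tolerance (9.57). Leaving out 1 library gave 1 sign only where the 1 library of opposite sign was the one removed. That was taurocholate replicate 2 for T54 (-6.58) and untreated replicate 2 for i-tRF (10.5). Over all leave-outs the ranges were -6.58 to -3.44 and 5.05 to 10.5. The difference in AsnGTT 3′ fragments ending with CCA was 5.30 points with each sequence counted 1 time, 8.77 among tRF-3 alone and 8.02 without the replicates numbered 1, alternatives chosen after seeing the data. The cause was not tested for any of these.

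With the replicate number as a block (replicate block) AspGTC was at -0.05 and AsnGTT at -0.21, and no result changed its call. For shares compared between the groups none could, since 3 pairs cannot give an exact p under 0.25. Deviations of same-numbered libraries correlated at -0.24, -0.01 and 0.19 over 230 classes. With 3 libraries per group these values cannot decide whether the numbers pair libraries. The replicates numbered 1 shared a raised share of mismatched last G, at 21.9% and 7.70%. Simulated counts with the same depths recovered 78% of 2-fold changes among isoacceptor sets, 55.8% among classes, 26.3% among cut positions and 0.6% among read sequences, and 4-fold changes in 96%, 94.7%, 86% and 32.2%, so 2-fold changes of single sequences were rarely called even where they had been put in.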

Other observations

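Reads that could not be assigned to 1 isoacceptor were left out of the values above. The largest group, 3034 reads, aligned equally to AsnGTT and HisGTG, with 529, 477 and 649 in the taurocholate libraries, against 390, 560 and 429 in the untreated libraries. The AsnGTT references they aligned to were 2 copies on chromosome 11, beside 10 HisGTG references, so their origin cannot be told. The AsnGTT reads proper included 139, or 3.62%, that aligned to those 2 copies alone, and 133 of them ended at base 31.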
